A study of Mus musculus with 10 samples.

Results

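The antioxidant and glutathione genes are a set of 34 mouse genes named for their roles in removing superoxide and peroxides, in the thioredoxin and glutathione cycles and in the Nrf2 response. A member was measured when a probe set carried its symbol and no other, and 29 of the 34 were, each by 1 probe set, among 29766 genes tested. Prdx1 and Gclm lay on probe sets with several symbols and were not used, and Prdx5, Prdx6 and G6pdx were not analysed here. Expression was measured on 1 microarray per sample. The RNA was labelled as cochlea, the part of the inner ear that hears, though the extraction protocol speaks of inner ear tissue, and came from CBA/CaJ mice aged 6 months with normal hearing, a strain that loses hearing late in life. All mice lived singly, and the 5 runner samples came from cages fitted with a wheel and the 5 control samples from cages lacking one. No genetic change or drug is named in the labels for either group, and sex and running distance are not stated there. Whether each array came from a separate animal is not stated either, so the spread that p-values are measured against may be technical.

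Superoxide leaked from mitochondria or made by oxidases is turned into hydrogen peroxide by superoxide dismutases, and peroxide is removed by catalase, glutathione peroxidases and peroxiredoxins. Glutathione and thioredoxin supply the electrons for the glutathione peroxidases and peroxiredoxins and are reduced again with NADPH. The transcription factor Nrf2, encoded by Nfe2l2, is held in the cytoplasm and marked for destruction by Keap1, and on oxidative stress it reaches the nucleus and switches on many of these genes at antioxidant response elements. The cochlea uses much energy to maintain its ionic gradients, and oxidants are widely studied there in noise damage, drug toxicity and ageing.

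The letters TGACNNNGC, the core of the antioxidant response element, were searched on both strands in RefSeq promoter windows of build GRCm38.p6, from 250 bases before to 50 bases after each start. Of the 24 measured members with a window, 5 (Mgst1, Nfe2l2, Sod1, Srxn1 and Txnrd1) held the core, 20.8%, and of all 27025 genes with a window 14% did. A narrower form of the core with every letter fixed, TGACTCAGC, was in none of the 24 and in 0.503% of genes. A GC box, GGGCGG on either strand, was in 22 of the 24 members, 91.7%, and in 38.2% of genes. A match is only a description of letters, and no match says only that these letters are not in this window. The 4 stretches in which the core lay before the start are shown because Nrf2 is a member's product and these letters are its known target. Capitals mark the core, which in Sod1, Mgst1 and Txnrd1 lies on the opposite strand and is printed as its reverse complement. Counted from the start, it spans -240 to -232 in Nfe2l2, -56 to -48 in Sod1 and in Mgst1, and -92 to -84 in Txnrd1.
Nfe2l2 at chr2:75704880-75704913, minus strand: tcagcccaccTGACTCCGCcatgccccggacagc
Sod1 at chr16:90220691-90220729, plus strand: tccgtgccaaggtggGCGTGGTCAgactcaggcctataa
Mgst1 at chr6:138140456-138140494, plus strand: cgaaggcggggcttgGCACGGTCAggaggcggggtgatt
Txnrd1 at chr10:82859099-82859137, plus strand: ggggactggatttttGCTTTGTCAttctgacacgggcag

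The 10 arrays had medians between 5.35 and 5.43 on the log2 scale, lowest in runners 4 (5.354) and 2 (5.367). Correlations over all genes were 0.991 to 0.997 within groups. Of the genes in the marker lists of other cell types, 2 osteoblast genes passed the test, the only 2 of all genes to do so, and 0 in the other lists did, so the counts that follow are of means only. Erythroid markers were lower in runners in 10 of 10 measured genes (list mean 7.87 to 8.35 in controls and 7.71 to 8.24 in runners), macrophage markers in 11 of 12 (6.40 to 6.55 and 6.20 to 6.59), neutrophil markers in 11 of 12 (8.68 to 9.09 and 8.63 to 9.15), B lineage markers in 9 of 9 (6.65 to 7.02 and 6.11 to 6.61) and osteoblast markers in 7 of 7 (7.93 to 8.20 and 7.40 to 7.79). Adipocyte markers were higher in 7 of 7 (5.17 to 5.56 and 5.55 to 6.07). Of the cochlear lists, hair cell markers were lower in 9 of 10 (5.13 to 5.27 and 4.90 to 5.30) and spiral ligament fibrocyte markers in 7 of 7 (8.14 to 8.33 and 7.67 to 8.37). Strial cell markers were lower in 6 of 8 (7.24 to 7.44 and 7.02 to 7.38), skeletal muscle markers in 5 of 8 (8.33 to 9.08 and 8.33 to 9.31) and brain markers in 2 of 7 (7.59 to 7.81 and 7.59 to 8.01). In whole tissue, fewer cells of a type and less RNA per cell cannot be told apart. The part of these lists in the differences below was not tested, apart from the correlations given further on.

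None of the 29 members passed the test between runners and controls (limma, Benjamini-Hochberg adjusted p under 0.05 over all 29766 genes), where 0.00672% of all genes passed. No member reached an unadjusted p under 0.05 either, against 7.13% of all genes, and the groups overlapped for every member, against 0.927% of genes with no overlap. The smallest adjusted p of a member was 0.704, that of Gpx8. The differences, runner minus control on the log2 scale, lay between -0.23 for Cat and 0.13 for Srxn1, and 20 of the 29 were under 0.1 in size. The 95% intervals all held 0, and for 28 members they stayed within 0.5 log2 of 0 on both sides, the exception being Cat, whose interval ran from -0.61 to 0.15. Means were lower in runners for 22 members (75.9%) and higher for 7, against 49.5% of all genes lower and 50.5% higher. The median difference was -0.062 against 0.00091 over all genes. The members were brighter on average than all genes (control mean 7.57 against 5.42), and no share was taken over genes of similar level. Whether the lean is particular to the members was therefore not tested. The mean level of the 29 members was 7.57 in controls (SD 0.028, n = 5) and 7.52 in runners (SD 0.077, n = 5), which is -0.050 ± 0.037 (SE) for runners minus controls. Single arrays moved this value, which was -0.030 without runner 2 and -0.028 without runner 4. It was -0.026 after median centring of the arrays and -0.083 with runner 1 and control 1 both left out.

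**Figure D1:**
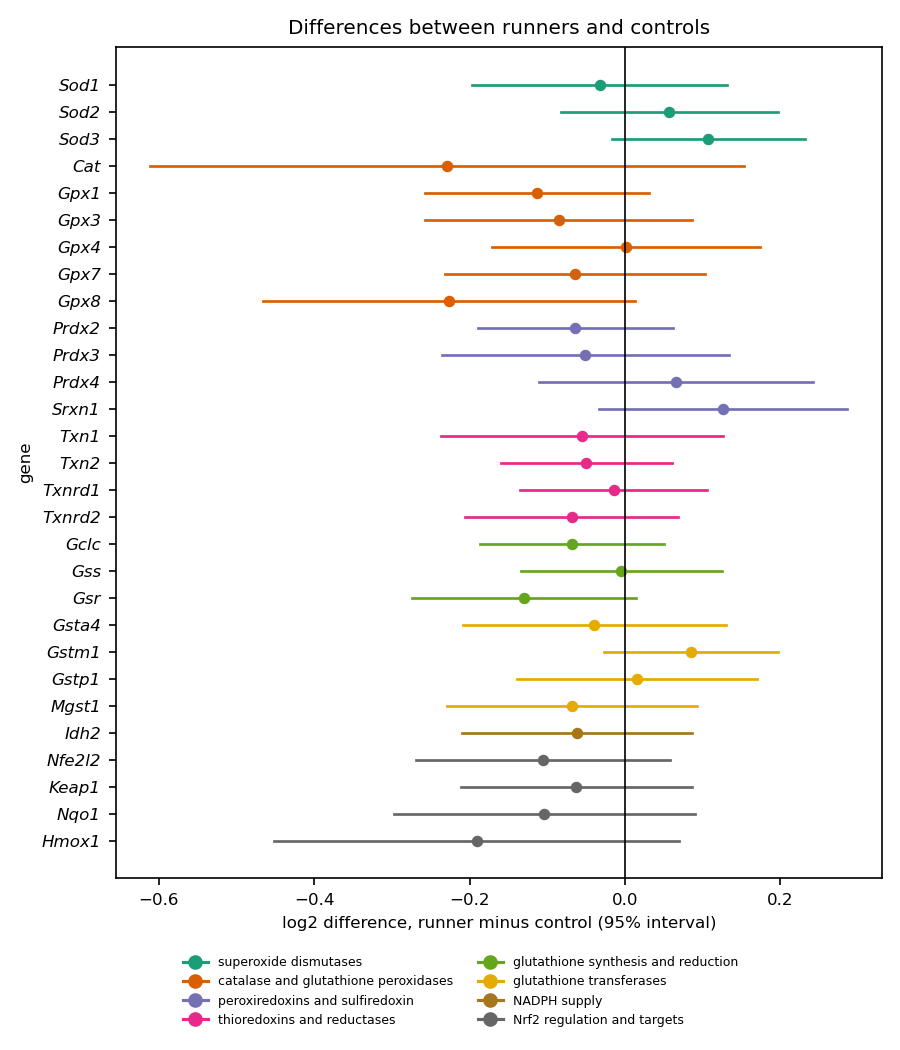
Log2 difference in level, runner minus control, for the 29 measured members (points) with 95% intervals from limma (lines), coloured by role, 5 arrays per group. Every interval holds 0, and that of Cat, from -0.61 to 0.15, reaches farthest from it.

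Of the superoxide dismutases, Sod2 and Sod3 were nominally higher in runners and Sod1 lower. Sod3, the enzyme secreted into the matrix, had log2 levels of 5.13, 5.29, 5.31, 5.26 and 5.24 in controls 1 to 5 and 5.44, 5.39, 5.26, 5.28 and 5.40 in runners 1 to 5. Runners 1, 2 and 5 lay above every control and none lay below every control, and control 1 was the lowest array. The difference was 0.11 ± 0.057 (SE; limma adjusted p = 0.729). After repeated quantile normalization (0.14) or median centring (0.13) its groups no longer overlapped, as for 1.14% and 1.19% of all genes, at adjusted p of 0.593 and 0.583. Sod2, the mitochondrial manganese enzyme, had 6.99, 6.86, 6.86, 6.87 and 6.89 in controls and 6.74, 6.97, 7.02, 7.03 and 6.996 in runners. Runner 1 was the lowest of all 10 arrays, while runners 2 to 5 lay above controls 2 to 5, and control 1 lay among them. The difference was 0.057 ± 0.064 (SE; limma adjusted p = 0.881), and 0.13 with runner 1 and control 1 left out (adjusted p = 0.236). Sod1, the cytosolic copper-zinc enzyme, ranged from 8.89 to 9.10 in controls and from 8.76 to 9.06 in runners, with a difference of -0.033 ± 0.076 (SE).

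Catalase and the glutathione peroxidases held the 2 largest differences of the set, and 5 of 6 were nominally lower in runners. Cat, the peroxisomal enzyme that splits hydrogen peroxide, had 8.23, 8.78, 8.12, 8.75 and 8.76 in controls and 8.37, 8.73, 7.98, 8.52 and 7.90 in runners. Its within-group SD of 0.34 was the highest of the 29, since controls 1 and 3 lay with the runners and runner 2 with the upper controls. The difference was -0.23 ± 0.18 (SE; limma adjusted p = 0.807), less than that spread. Gpx3, the secreted glutathione peroxidase of plasma, ran from 8.66 to 8.94 in controls and from 8.59 to 8.92 in runners (-0.085 ± 0.079, SE). As with Cat, control 2 was its highest array and controls 1 and 3 the lowest of the controls.

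Gpx8, a membrane protein of the endoplasmic reticulum, had 7.78, 7.98, 7.86, 7.87 and 7.81 in controls and 7.90, 7.27, 7.75, 7.42 and 7.81 in runners. Runners 2 and 4 were far below every control, runner 3 just below, and runners 1 and 5 within the controls' range. Runners differed from controls by -0.23 ± 0.11 (SE; limma adjusted p = 0.704), a fold of 1.17. Gpx1, the cytosolic and most widespread selenium-dependent peroxidase, had 10.08, 10.17, 10.19, 10.05 and 10.08 in controls and 10.20, 9.93, 10.01, 9.87 and 10.01 in runners. Runners 2 to 5 lay below every control and runner 1 above every control. The difference was -0.11 ± 0.066 (SE; limma adjusted p = 0.750), and -0.16 without runner 1 (adjusted p = 0.204), where its groups did not overlap, as for 5.82% of all genes. Gpx7, the other endoplasmic reticulum peroxidase, differed by -0.064 ± 0.077 (SE), and Gpx4, which reduces lipid peroxides in membranes, by 0.00083 ± 0.080 (SE). The sign of Gpx4 turned under several settings and has no meaning at this size.

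**Figure D2:**
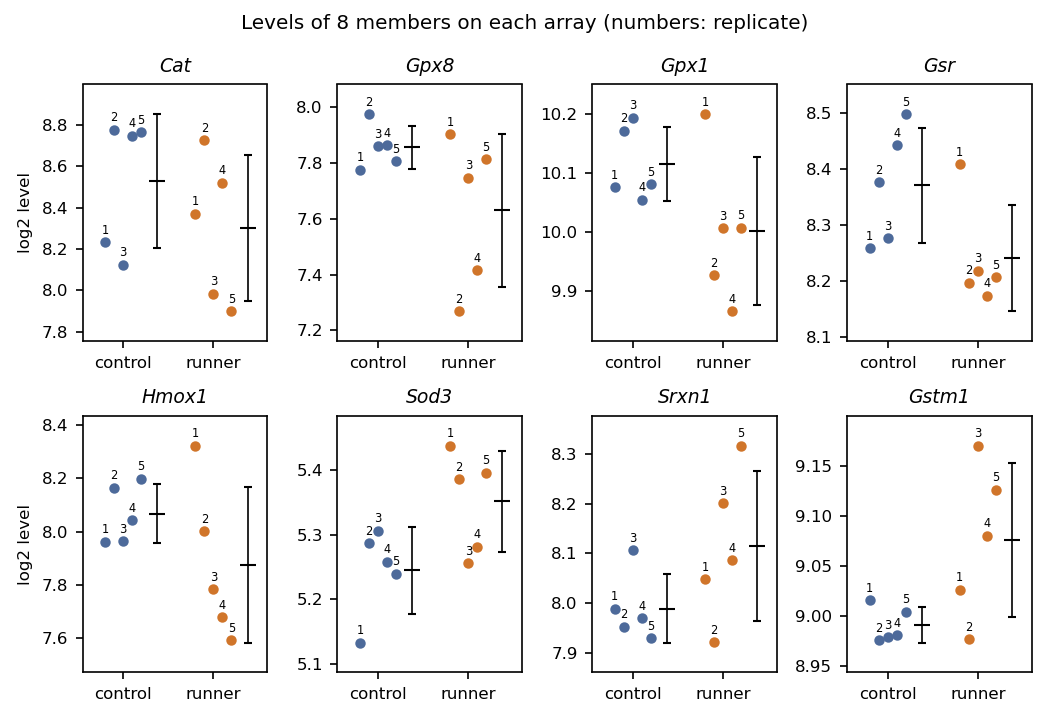
Log2 level of 8 members on each array, with controls on the left (blue) and runners on the right (orange), replicate numbers beside the points, and the group mean with its SD (n = 5) in black. Runner 1 stands above runners 2 to 5 for Gpx8, Gpx1, Gsr and Hmox1, and Cat is spread over 8.12 to 8.78 within the controls alone.

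Peroxiredoxins reduce peroxides through a cysteine, and sulfiredoxin restores them after overoxidation. Srxn1, which encodes sulfiredoxin, had 7.99, 7.95, 8.11, 7.97 and 7.93 in controls and 8.05, 7.92, 8.20, 8.09 and 8.32 in runners. Runners 3 and 5 lay above every control and runner 2 below every control. The difference was 0.13 ± 0.074 (SE; limma adjusted p = 0.749), the highest of the set, and 0.17 without runner 2. Prdx2, abundant in red cells, differed by -0.064 ± 0.058 (SE), the mitochondrial Prdx3 by -0.051 ± 0.085 and Prdx4 of the endoplasmic reticulum by 0.066 ± 0.081. Prdx3 was lowest in runner 2, at 8.20, against 8.35 to 8.60 in controls. All 4 members of the thioredoxin system had differences just below 0. They were -0.055 ± 0.084 (SE) for Txn1, the cytosolic thioredoxin, -0.050 ± 0.051 for the mitochondrial Txn2, -0.015 ± 0.056 for the cytosolic reductase Txnrd1 and -0.069 ± 0.063 for the mitochondrial reductase Txnrd2. Txn1 was below every control in runners 2 and 4, at 8.25 and 8.09, and above every control in runners 1 and 5, at 8.55 and 8.52.

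The 3 measured genes of glutathione synthesis and reduction were nominally lower in runners. Gsr, the reductase that regenerates glutathione, had 8.26, 8.38, 8.28, 8.44 and 8.50 in controls and 8.41, 8.20, 8.22, 8.17 and 8.21 in runners. Runners 2 to 5 lay within 0.05 log2 of each other and below every control, and runner 1 lay above 3 of the 5 controls. The difference was -0.13 ± 0.067 (SE; limma adjusted p = 0.717), and -0.20 with runner 1 and control 1 left out (adjusted p = 0.141). Gclc, the catalytic subunit of the rate-limiting enzyme of glutathione synthesis, ran from 8.32 to 8.46 in controls and from 8.23 to 8.41 in runners (-0.068 ± 0.055, SE). Gss, which completes glutathione, differed by -0.0048 ± 0.060 (SE), and its sign turned under several settings.

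Glutathione transferases attach glutathione to reactive compounds. Gstm1 had 9.02, 8.98, 8.98, 8.98 and 9.004 in controls and 9.03, 8.98, 9.17, 9.08 and 9.13 in runners. The controls differed by no more than 0.05 log2, 4 runners lay above all of them, and runner 2 lay among the lowest controls. The difference was 0.085 ± 0.052 (SE; limma adjusted p = 0.760), and 0.11 without runner 2, where the groups did not overlap, as for 1.88% of all genes. Gstp1 differed by 0.015 ± 0.071 (SE), Gsta4, which acts on the lipid peroxidation product 4-hydroxynonenal, by -0.040 ± 0.078, and the membrane-bound Mgst1 by -0.068 ± 0.074. Gstm1 and Gstp1 have close relatives in the mouse genome, so probes may bind several transcripts and their values are uncertain in identity. Idh2, the mitochondrial isocitrate dehydrogenase that makes NADPH, differed by -0.062 ± 0.068 (SE).

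The Nrf2 genes of the set were nominally lower in runners in 4 of 4. Of 20 other Nrf2 regulators and targets measured, 10 were lower and 10 higher. Hmox1, the heme oxygenase and a classical Nrf2 target, had 7.96, 8.17, 7.97, 8.04 and 8.20 in controls and 8.32, 8.002, 7.78, 7.68 and 7.59 in runners. Runners 3 to 5 lay below every control and runner 1 above every control, and the runner SD of 0.29 exceeded that of the controls, 0.11. Runners differed from controls by -0.19 ± 0.12 (SE; limma adjusted p = 0.770), a fold of 1.14. Without runner 1 it was -0.30 (adjusted p = 0.127), and with control 1 also left out -0.33 (adjusted p = 0.109), the smallest adjusted p of any member under any setting. With both left out 6 members reached an unadjusted p under 0.05, as did 15.5% of all genes. Nfe2l2 itself had 7.24, 7.50, 7.38, 7.45 and 7.31 in controls and 7.45, 7.29, 7.07, 7.30 and 7.23 in runners. Runners 3 and 5 lay below every control, and the difference was -0.11 ± 0.075 (SE; limma adjusted p = 0.783). Its inhibitor Keap1 differed by -0.063 ± 0.068 (SE), with runners 2 and 4 at 7.05 and 7.11 below every control. Nqo1, a quinone reductase and Nrf2 target, differed by -0.10 ± 0.089 (SE), with runners 2 and 4 lowest at 5.17 and 5.39. The 5 members with the element core in their window had differences of both signs, from -0.11 for Nfe2l2 to 0.13 for Srxn1.

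The members also differed among themselves in which arrays were low. For 14 of 29, or 48.3%, runners 2 and 4 were the 2 lowest of the 10 arrays, a pattern seen after the values were examined and given without a test. The same held for 11.9% of all genes, which were dimmer on average than the members (control mean 5.42 against 7.57). The 14 were Sod1, Gpx1, Gpx4, Gpx7, Gpx8, Prdx2, Txn1, Txnrd1, Gsr, Gsta4, Mgst1, Idh2, Keap1 and Nqo1, which span cytosolic, mitochondrial and endoplasmic reticulum proteins. Over the 29 members, runner 2 lay at -0.10 and runner 4 at -0.11 from the gene means, against -0.030 and -0.037 over all genes. Runner 2 was below the gene mean for 23 members and runner 4 for 23. Without runner 4 the number of members lower in runners was 17, and without runner 2 it was 18, in place of 22. Runner 1 lay the other way, at 0.062 over the members against 0.045 over all genes, and was the highest array for 8 members. Cat, Gpx3, Sod2 and, narrowly, Txn2 did not share the low values of runners 2 and 4, and lay above their own means in both.

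**Figure D3:**
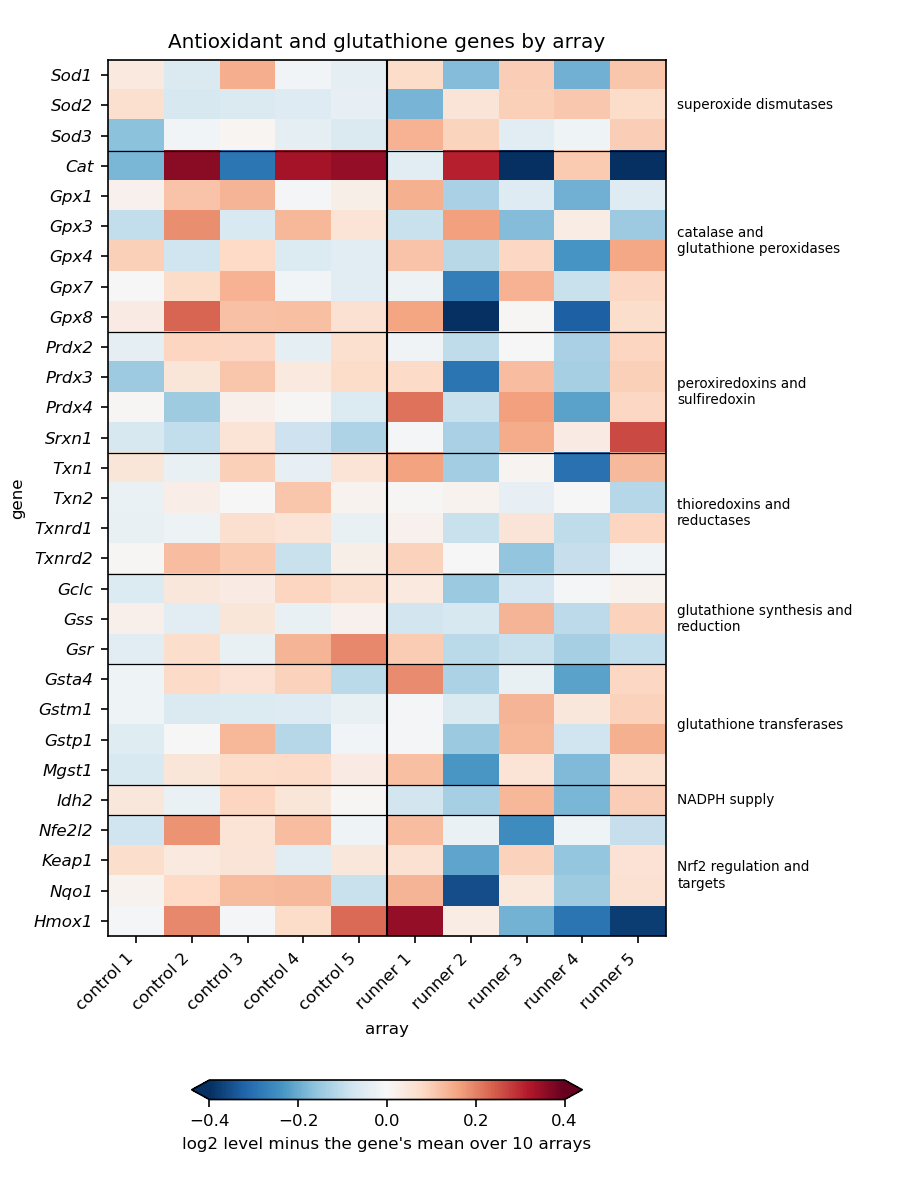
Deviation of each of the 29 members from its own mean over the 10 arrays (log2, colour scale ending at 0.4 on both sides), with controls left and runners right of the black line and rows grouped by role. The columns of runners 2 and 4 are blue for 23 members each, and Cat and Hmox1 vary most from array to array.

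The members were set against the mean levels of 11 marker lists over the 10 arrays, 319 relations in all. By a two-sided permutation test of Pearson's r, 5 passed a Benjamini-Hochberg adjusted p under 0.05, and they involved 4 members. Nfe2l2 was higher where erythroid markers were higher (r = 0.94, permutation p = 4e-05, adjusted p = 0.0128; Spearman's rho = 0.98, permutation p = 4e-05, adjusted p = 0.0128). The relation held within groups, with r = 0.92 after each group was centred on its mean, and r was 0.90 without runner 3 and control 2, the arrays farthest from the median of the list. Gstm1 was higher where B lineage markers were lower (r = -0.90, permutation p = 0.00034, adjusted p = 0.0362), with r = -0.86 after centring the groups and -0.79 without runners 3 and 5. Runners 3 to 5 held both the lowest B lineage levels and the highest Gstm1 levels. Its rank correlation did not pass (rho = -0.75, permutation p = 0.018, adjusted p = 0.127). With 1 array left out the relation of Nfe2l2 passed in 6 of 10 cases (r from 0.91 to 0.97) and that of Gstm1 in 2 of 10 (r from -0.96 to -0.87). After repeated quantile normalization r for Gstm1 was -0.72 and did not pass (permutation adjusted p = 0.151).

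The other 3 relations that passed over all 10 arrays involved lists on which the arrays fell into separate clusters, so no pooled value is given. Values within a cluster come from the same arrays that chose these members and are a description, with no test. On the macrophage list runners 2 to 5 lay between 6.20 and 6.22 and the other 6 arrays, the controls and runner 1, between 6.40 and 6.59. Among those 6 arrays Hmox1 was higher where macrophage markers were higher (r = 0.90, rho = 0.94), and r was 0.92 without the 2 arrays farthest from the median. Hmox1 is well expressed by macrophages that take up red cells, but the part of macrophage content in its values was not tested. Sod2 was lower there where macrophage markers were higher (r = -0.86, rho = -0.77), but that rests on 2 arrays, since r was 0.069 without them. For Sod2 with the neutrophil list the arrays fell into clusters of 5 and 5, too few in each for a value. Among the relations that did not pass were those of Prdx2 and Cat, both abundant in red cells, with the erythroid list (r = 0.18, permutation adjusted p = 0.796, and r = 0.71, permutation adjusted p = 0.164).

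**Figure D4:**
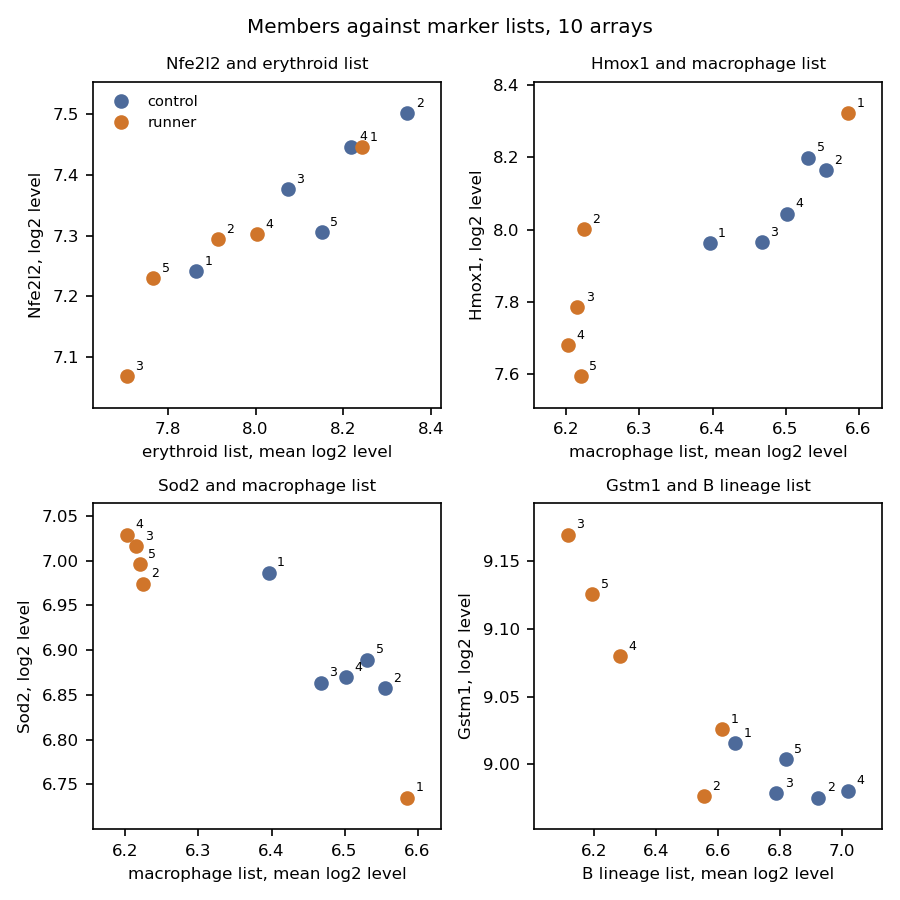
Log2 level of 4 members against the mean log2 level of a marker list on the 10 arrays, controls in blue and runners in orange, with replicate numbers. Nfe2l2 follows the erythroid list across both groups, while on the macrophage list runners 2 to 5 form a cluster between 6.20 and 6.22, apart from the other 6 arrays.

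Of 108 measured genes in the wider pathways, which are other glutathione, thioredoxin, selenium, NADPH, Nrf2, oxidant-defence and oxidant-producing genes, 0 passed the test, with 8 lower and 3 higher at an unadjusted p under 0.05 (3.92% and 3.21% of all genes). The groups did not overlap for 2 lower and 0 higher genes (0.548% and 0.38% of all genes). The median difference was -0.033, with 64 genes lower (59.3%) and 44 higher, against 49.5% of all genes lower. Lower in runners were 8 of 14 thioredoxin, 4 of 10 selenium, 10 of 20 Nrf2 and 2 of 10 other oxidant-defence genes. Among the 33 further glutathione genes 22 were lower, 4 of them at an unadjusted p under 0.05. Gstt2, a theta-class transferase, had 6.04, 5.99, 5.98, 5.91 and 6.00 in controls and 5.86, 5.80, 5.70, 5.52 and 5.70 in runners. All 5 runners lay below all 5 controls, at -0.27 ± 0.066 (SE; limma adjusted p = 0.5002), a fold of 1.21. Gstt3 of the same class differed by -0.18 ± 0.065 (SE) and Gsta2, a dim gene with means of 4.93 in controls and 4.66 in runners, by -0.27 ± 0.088. Transferases of one class resemble each other, so these values too are uncertain in identity. Hpgds, a glutathione-dependent prostaglandin D synthase of blood cells, had 6.01, 6.37, 6.10, 6.29 and 6.41 in controls and 6.28, 5.79, 5.80, 5.49 and 5.62 in runners. Runners 2 to 5 lay below every control and runner 1 within their range. The difference was -0.44 ± 0.13 (SE, limma adjusted p = 0.583). Without runner 1, its highest runner, it was -0.56 and passed (limma adjusted p = 0.0480), when 0.333% of all genes did. Of the 10 fits with 1 array left out, Hpgds passed only in that 1.

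The metallothionein genes Mt1 and Mt2, whose small proteins bind zinc and copper and scavenge oxidants, were nominally higher in runners. Mt2 had 10.54, 10.44, 10.58, 10.33 and 10.19 in controls and 10.62, 10.48, 11.01, 11.05 and 11.02 in runners. Runners 3 to 5 lay above every control by a wide margin, runner 1 just above and runner 2 among them. Runners differed from controls by 0.42 ± 0.12 (SE; limma adjusted p = 0.571), a fold of 1.34, and Mt1 by 0.18 ± 0.063 (SE; adjusted p = 0.607). Of the NADPH genes, 6 of 7 were lower, among them Pgls of the pentose phosphate pathway (-0.22 ± 0.069, SE; adjusted p = 0.592) and Nnt, the mitochondrial transhydrogenase (-0.17 ± 0.069, SE). Pstk, a kinase needed to make selenocysteine, differed by 0.24 ± 0.088 (SE; adjusted p = 0.607). Of the 14 oxidant-producing genes 12 were lower (85.7%, against 49.5% of all genes). Among the 12 were the dim genes Nox1, Duox1 and Duox2, with control means of 3.17, 4.40 and 4.31. They differed by only -0.017, -0.023 and -0.018. Mpo, also lower, is in the neutrophil list too. Noxo1, an organizer of NADPH oxidases, lay lower in all 5 runners than in all 5 controls (-0.15 ± 0.057, SE; limma adjusted p = 0.610). It was a dim gene, with means of 5.03 in controls and 4.88 in runners, below every array median. The filter on dim genes, which kept means of at least 5, removed it. Cyba and Cybb, subunits of the phagocyte oxidase, were chosen after their values were seen because they passed, with Hpgds, when runner 1 and control 1 were left out. Their differences were then -0.29 and -0.45, each at limma adjusted p = 0.0465, against -0.17 and -0.25 over all arrays. Under that setting 1.43% of all genes passed. For Cyba and Cybb runner 1 was the highest runner (7.50 and 8.19) and control 1 the lowest control (7.18 and 7.65). Leaving out these arrays therefore widens both differences, and passing there is a description and not a test.

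**Figure D5:**
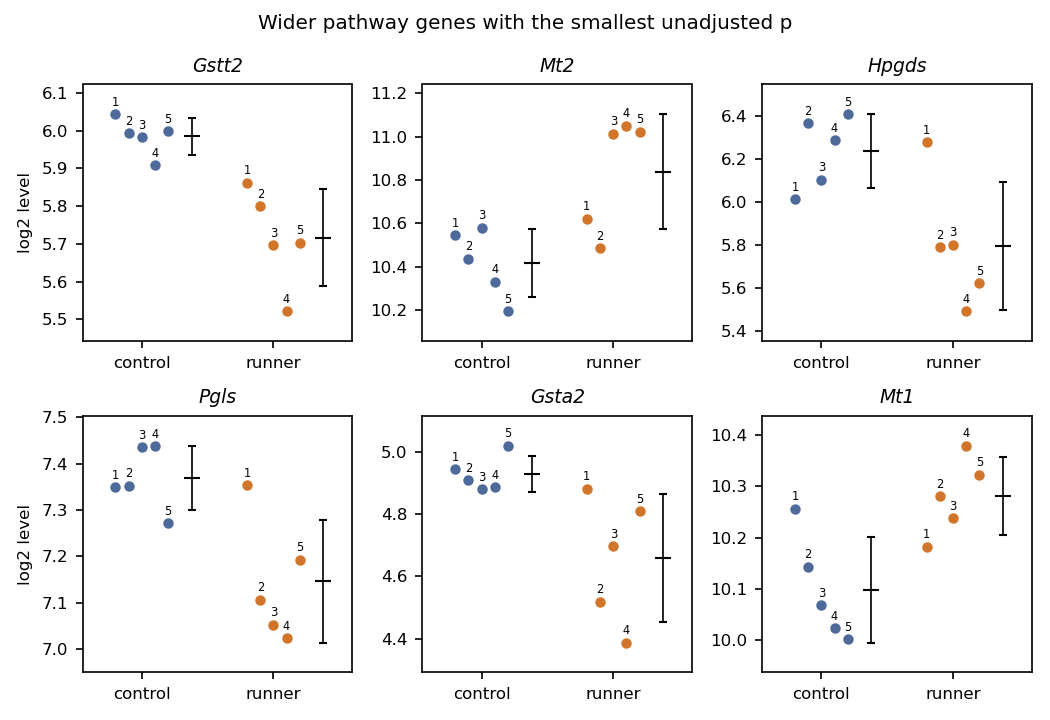
Log2 level on each array of the 6 wider pathway genes with the smallest unadjusted p, controls in blue and runners in orange, with replicate numbers and the group mean with its SD (n = 5) in black. Gstt2 has no overlap between the groups, and for Mt2 runners 3 to 5 lie at 11.01 to 11.05, above every control.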

How the data were processed

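The authors deposited log2 expression values, 1 per probe set and sample. Per the submitters' processing notes RMA (background correction, quantile normalization and probe summary) and Partek were used. No version, chip or build is given in the sources used here. Quantile normalization hides a change shared by most genes, and RMA understates fold changes of dim genes.

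Of 39295 probe sets, the platform annotation gave 1 symbol to 30130, several to 2146 and none to 7019. Through Entrez identifiers 827 symbols were updated to RefSeq (GRCm38.p6). For the 294 genes with several probe sets the one with the highest mean was kept. Testing of 29766 genes used limma 3.58.1 and R 4.3.3 (functions lmFit and eBayes, group only, two-sided), and limma's standard errors and 95% intervals are given. SE of a list mean is that of the difference in group means. The code was tested on simulated data. Correlations used 100000 permutations in Python 3.11.15, and clusters are arrays split at a gap over 1/3 of the range of a list mean, a rule added after the values were seen. The number of arrays limits precision.

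The members and lists were chosen with earlier results of these data known. Named are all members, the 10 wider pathway genes with the smallest p, and correlations past the threshold. Cyba, Cybb and the relations of Prdx2 and Cat with erythroid markers were named after their values were seen. Same-numbered samples of the 2 groups deviated from their group means with correlations from -0.25 to 0.28, so the numbers were not taken to pair samples.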

Additional observations from a re-analysis of the deposited data

Results flagged for a closer look

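In 5 of 58 groups of 5 arrays (29 members in each group), 1 array stood apart from the other 4 by more of the group's range than Dixon's 95% limit, where chance gives about 1 in 20. Sod2 in runner 1 was 6.74 against 6.97 to 7.03 in the other runners, and Sod2 in control 1 was 6.99 against 6.86 to 6.89 in the other controls. Gsr in runner 1 was 8.41 against 8.17 to 8.22. Prdx3 in control 1 was 8.35 against 8.53 to 8.60. Keap1 in control 4 was 7.22 against 7.30 to 7.33. Runner 1 or control 1 was the array in 4 of the 5, and leaving both out is among the settings given in the next part.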

How the results depend on the processing

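Under 20 alternatives no member passed the adjusted threshold, and 21 of 29 members kept the sign of their difference. Trended and robust moderation, no moderation, the filter on dim genes, other uses of probe sets and the replicate block left every member's difference unchanged. A sign could turn only under the other alternatives. With the replicate block 0 members and 2 genes in all were past the threshold, as without it. The block cannot change a difference where each number has 1 array in each group, so the mean difference stayed at -0.050 by design. Of the 10 samples, 1 correlated best with its own number. The count at an unadjusted p under 0.05, 0 as tested, was 2 with no moderation (7.02% of all genes), 3 with repeated quantile normalization (7.82%), 1 with median centring (8.14%), 5 with array weights (12.9%), 6 with runner 1 and control 1 left out (15.5% of all genes) and 0 to 4 when 1 array was left out (4 without runner 1, Gpx1, Gpx8, Gsr and Hmox1, against 14.5% of genes). The count with no overlap, 0 as tested, was 1, Sod3, with repeated quantile normalization and 1 with median centring. It was 5 (Sod2, Gpx1, Gclc, Gsr and Nfe2l2) with runner 1 and control 1 left out, against 10.2% of genes, and 0 to 2 with 1 array left out (5.82% of genes without runner 1). Wider pathway genes past the threshold numbered 3 with both left out and 0 to 1 with 1 left out. Relations with marker lists, 5 as tested, numbered 4 with the filter on dim genes (Hmox1 with the macrophage list no longer passed, permutation adjusted p = 0.0542), 2 with repeated quantile normalization, 1 with median centring, 0 with both left out and 0 to 5 with 1 left out. They were recomputed only where a setting changed the values. Differences near 0 turned sign. Gpx4 was -0.0039 with repeated quantile normalization and -0.0037 with both left out. Gss was 0.019 with repeated quantile normalization, 0.019 with median centring, 0.022 with array weights and 0.017 with both left out. Txnrd1 was 0.0086 with median centring and 0.0073 with array weights, and Sod1 was 0.0015 with array weights. With 1 array left out Gpx4 ranged from -0.038 to 0.060, Gss from -0.039 to 0.020, Txnrd1 from -0.038 to 0.0086, Sod1 from -0.065 to 0.011, Prdx3 from -0.093 to 0.016, Txn1 from -0.10 to 0.012, Gsta4 from -0.092 to 0.0092 and Gstp1 from -0.019 to 0.054. The count of members lower in runners ranged from 17 to 24 and the mean difference from -0.071 to -0.028 with 1 array left out. The causes were not tested. The number of arrays, 5 a group, limits the precision, and the within-group SD was under 0.15 for 25 members.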
